A study of Homo sapiens with 12 samples.

Results

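The genes described here are 45 genes of DNA replication and S phase, from the 45416 genes listed for U251, an established human glioblastoma cell line. They were picked by name for their roles, and earlier results of these data were known when choosing these genes. These are 6 MCM helicase subunits, 6 helicase partners, 5 origin licensing factors, 6 genes of the sliding clamp and its loaders, 8 polymerase and primase subunits, 3 genes of strand maturation and single-strand binding, 3 of deoxynucleotide supply, 2 of chromatin assembly and maintenance, 3 of fork surveillance and repair and 3 G1/S regulators. The cells received a control siRNA (siNC) or either of 2 siRNAs against *PD-L1* (siPDL1-1 and siPDL1-2) for 48 h, and were then left unstimulated or exposed to IFNγ at 100 U/ml for 24 h. All 6 groups share the wild-type U251 background and an siRNA transfection, each group held 2 libraries of poly(A) RNA, and untransfected cells were not analysed here. The study describes the libraries as coming from independent experiments. The p-values rest on the spread between the 2 libraries of a group, pooled over the 6 groups and adjusted with the help of all genes tested. Each gene thus has 1 standard error for all pairwise comparisons, also where the groups differ in spread. Where libraries of different groups are said not to overlap, the genes were named for their calls. Such statements describe the values and add no support to the calls.

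Chromosome replication is prepared in G1, when the origin recognition complex, CDC6 and CDT1 load the ring of MCM2 to MCM7 onto DNA. In S phase, CDC45 and the GINS complex join the ring to form the active helicase, the primase and polymerases copy the strands behind it, and PCNA, loaded by replication factor C, holds the polymerases on DNA. Transcription of most of these genes is driven by E2F factors as cells pass from G1 into S phase, and dividing glioblastoma cells express the whole set.

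All 45 genes were detected in every library, with at least 48 reads for any of them (*CCNE2* had the fewest), and all 45 were among the 17982 genes with enough reads to be tested. The libraries held 17101069 to 55657393 reads on genes, so that 1 read was worth 0.0187 to 0.0586 normalized CPM (read counts scaled to the size of the library). *CD274*, the gene of PD-L1, was 4.60 and 4.91 CPM with siNC, 2.67 and 2.73 CPM with siPDL1-1 and 3.57 and 3.45 CPM with siPDL1-2 in unstimulated cells. After IFNγ, *CD274* was 71.2 and 76.0 CPM with siNC, 60.9 and 66.7 CPM with siPDL1-1 and 37.5 and 35.0 CPM with siPDL1-2. It was lower with both siRNAs in unstimulated cells, whereas after IFNγ it was lower with siPDL1-2 (log2 fold change -1.001, FDR = 4.25e-07) and did not pass the test with siPDL1-1 (log2 fold change -0.20, FDR = 0.0498). Of 11 glial and glioblastoma markers, 10 averaged above 1 CPM, *OLIG2* was near 0, and their summed level ranged from 4170 to 5091 CPM. That sum was carried by *VIM* (mean 3502 CPM) and *CD44* (523 CPM), which are not specific to glia. *GFAP*, *S100B* and *CHI3L1* averaged only 4.38, 3.70 and 2.71 CPM. The 6 leukocyte markers summed to at most 0.928 CPM in any library, 3 endothelial markers to at most 5.63 CPM and 3 neuronal markers to at most 5.28 CPM, and 4 epithelial markers summed to 89.8 to 126 CPM, carried by *KRT8* and *KRT18*.

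The summed level of the 45 genes was 2642 and 2645 CPM in unstimulated siNC cells, and every other library lay below both. Unstimulated cells summed to 2190 to 2196 CPM with siPDL1-1 and 2253 to 2282 CPM with siPDL1-2. After IFNγ the sums were 2208 to 2222 CPM with siNC, 1900 to 1924 CPM with siPDL1-1 and 2196 to 2244 CPM with siPDL1-2. The siPDL1-1 cells exposed to IFNγ had the lowest sums. With siPDL1-2, the IFNγ-exposed and unstimulated sums differed by about the spread within each pair in the deposited scaling. Plain CPM leaves out the scaling factor, which was 1.036 and 1.034 in unstimulated siPDL1-2 libraries and 0.997 and 0.986 in IFNγ-exposed ones. With plain CPM, 10 of the 45 genes were called lower and 0 higher with IFNγ in siPDL1-2 cells. Plain CPM also moved the median log2 fold change of all genes tested in this comparison, from -0.01 to -0.06. The share of all genes called with plain CPM is not given here. In bulk RNA, fewer cells in S phase and less of these RNAs per cell cannot be told apart.

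**Figure D1:**
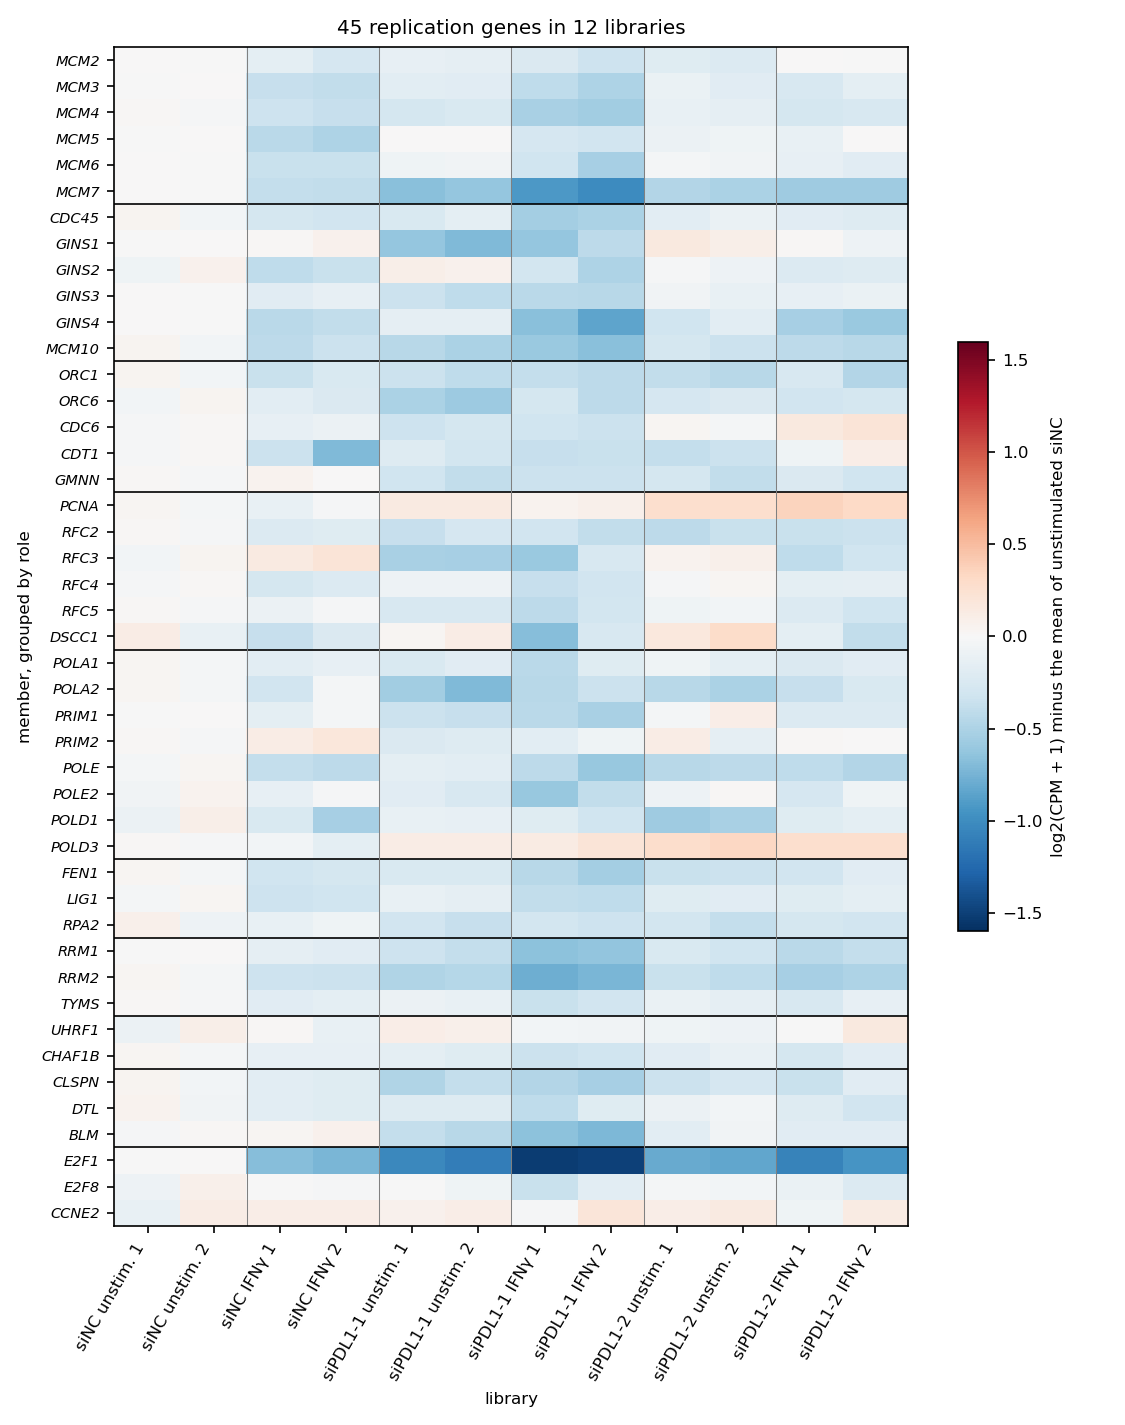
Heatmap of the 45 genes (rows, grouped by role) in the 12 libraries (columns, 2 per group), coloured by log2(CPM + 1) minus the mean of the 2 unstimulated siNC libraries. *E2F1* and *MCM7* are below the control in every other library, and *PCNA* and *POLD3* are above it with both siPDL1-1 and siPDL1-2.

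Levels between genes were compared per length, as mean CPM over the 12 libraries divided by the length of the canonical transcript in kb. *TYMS* was highest at 112 CPM per kb, followed by *MCM7* at 91.7, *PCNA* at 84.3 and *MCM3* at 55.7 CPM per kb. The lowest levels were those of *CCNE2*, a G1/S cyclin, at 1.20 CPM per kb, *BLM*, a DNA helicase of fork repair, at 3.04 and *CLSPN*, the checkpoint adaptor claspin, at 3.29 CPM per kb. Reads were counted without regard to strand, and 10 of the 45 genes overlap a gene whose mean level was above 10% of their own, for which reads may be shared. They are *GINS2*, *RFC4*, *RFC5*, *POLA2*, *PRIM1*, *POLD3*, *FEN1*, *CHAF1B*, *DTL* and *CCNE2*. The most unequal overlaps were those of *PRIM1* with *NACA* on the same strand (14.3 against 496 CPM), *CCNE2* with *INTS8* on the opposite strand (3.22 against 37.8 CPM) and *RFC4* with *EIF4A2* on the opposite strand (43.0 against 439 CPM).

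In unstimulated cells, both siRNAs lowered many of the replication genes, with *E2F1* and *MCM7* among the 3 largest decreases for each. *E2F1*, the transcription factor that gives the E2F family its name, was 49.5 and 49.6 CPM with siNC, 23.6 and 22.5 CPM with siPDL1-1 and 27.9 and 27.5 CPM with siPDL1-2. Every siPDL1 library lay below both siNC libraries, by a log2 fold change (± SE, the standard error) of -1.07 ± 0.06 (FDR = 1.52e-08) with siPDL1-1 and -0.82 ± 0.06 (FDR = 1.75e-07) with siPDL1-2. *MCM7*, a subunit of the MCM ring, was 316 and 315 CPM with siNC, 199 and 206 CPM with siPDL1-1 and 227 and 221 CPM with siPDL1-2. The groups did not overlap, and the log2 fold changes were -0.64 ± 0.04 (FDR = 3.27e-08) and -0.49 ± 0.04 (FDR = 3.35e-07). *GINS1*, which encodes the PSF1 subunit of GINS, was 23.8 and 24.1 CPM with siNC, 15.3 and 14.3 CPM with siPDL1-1 and 26.8 and 25.7 CPM with siPDL1-2. It fell with siPDL1-1, by a log2 change of -0.66 ± 0.08 (FDR = 1.19e-05), and its value of 0.13 ± 0.08 with siPDL1-2 did not pass the test.

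With siPDL1-1 in unstimulated cells, 21 of the 45 genes fell and 0 rose at FDR < 0.01 (limma), against 8.99% of all genes tested that fell and 9.8% that rose. The median log2 fold change of the 45 was -0.22, and 38 had a negative value, beside a median of 0.02 over all genes tested. With siPDL1-2, 18 fell and 2 rose, against 11.9% and 16.5% of all genes, with a median of -0.13 and 37 negative values beside a median of 0.03 over all genes. The edgeR quasi-likelihood test on the recovered reads called 24 and 23 of the 45, and DESeq2 called 22 and 22. Most changes were small. A fold change above 1.5 was reached by 4 genes with siPDL1-1 (*E2F1*, *MCM7*, *GINS1* and *POLA2*) and by 1 with siPDL1-2 (*E2F1*), where 4% and 6.17% of all genes tested passed both thresholds in either direction. Both comparisons use the same 2 siNC libraries, so their values are given side by side and are not independent. Without either siPDL1-1 library, 13 genes were called for siPDL1-1, and for siPDL1-2 the number was 12 without siNC replicate 1 and 10 without siPDL1-2 replicate 2.

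The 2 genes that rose with siPDL1-2 were *PCNA*, the sliding clamp, and *POLD3*, an accessory subunit of DNA polymerase delta. *PCNA* was 100.0 and 96.1 CPM with siNC, 108 and 108 CPM with siPDL1-1 and 118 and 119 CPM with siPDL1-2. Both siPDL1-2 libraries were above all others without IFNγ, and the log2 fold change against siNC was 0.27 ± 0.05 (FDR = 0.000247). *POLD3* was 23.2 and 22.6 CPM with siNC and 28.2 and 29.0 CPM with siPDL1-2, a log2 fold change of 0.31 ± 0.06 (FDR = 0.00105). The catalytic subunit of the same polymerase moved the other way, since *POLD1* was 111 and 126 CPM with siNC and 79.0 and 82.2 CPM with siPDL1-2, a log2 fold change of -0.55 ± 0.08 (FDR = 0.000233).

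The siRNAs differed from each other in some of these genes. Between unstimulated cells, 9 of the 45 were lower and 2 higher with siPDL1-1 than with siPDL1-2, against 14.2% and 9.89% of all genes tested. Counting either direction, 11 of the 45 were called, a share similar to the 4338 of 17982 genes tested. *GINS1* differed most, by a log2 change of -0.79 ± 0.08 (FDR = 3.21e-06), with the values given above. *RFC3*, a subunit of the clamp loader, was 46.7 and 50.1 CPM with siNC, 33.6 and 33.1 CPM with siPDL1-1 and 50.2 and 51.2 CPM with siPDL1-2. Only siPDL1-1 was below the control, and the difference between the siRNAs was -0.59 ± 0.08 (FDR = 0.000106). *PRIM1*, the catalytic primase subunit, was 12.5 and 12.3 CPM with siPDL1-1 and 15.9 and 17.5 CPM with siPDL1-2, a difference of -0.39 ± 0.08. The genes that were higher with siPDL1-1 were *POLD1*, at 109 and 108 CPM against the lower siPDL1-2 values above (0.42 ± 0.08), and *POLE*, the catalytic subunit of DNA polymerase epsilon, at 73.2 and 72.4 against 59.8 and 60.6 CPM (0.27 ± 0.06). Past a fold of 1.5 were *GINS1* and *RFC3*, 2 of the 45, against 4.35% of all genes tested. The 11 calls became 2 without siPDL1-1 unstimulated replicate 1, and 3 without siPDL1-1 replicate 2 or either siPDL1-2 unstimulated library.

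**Figure D2:**
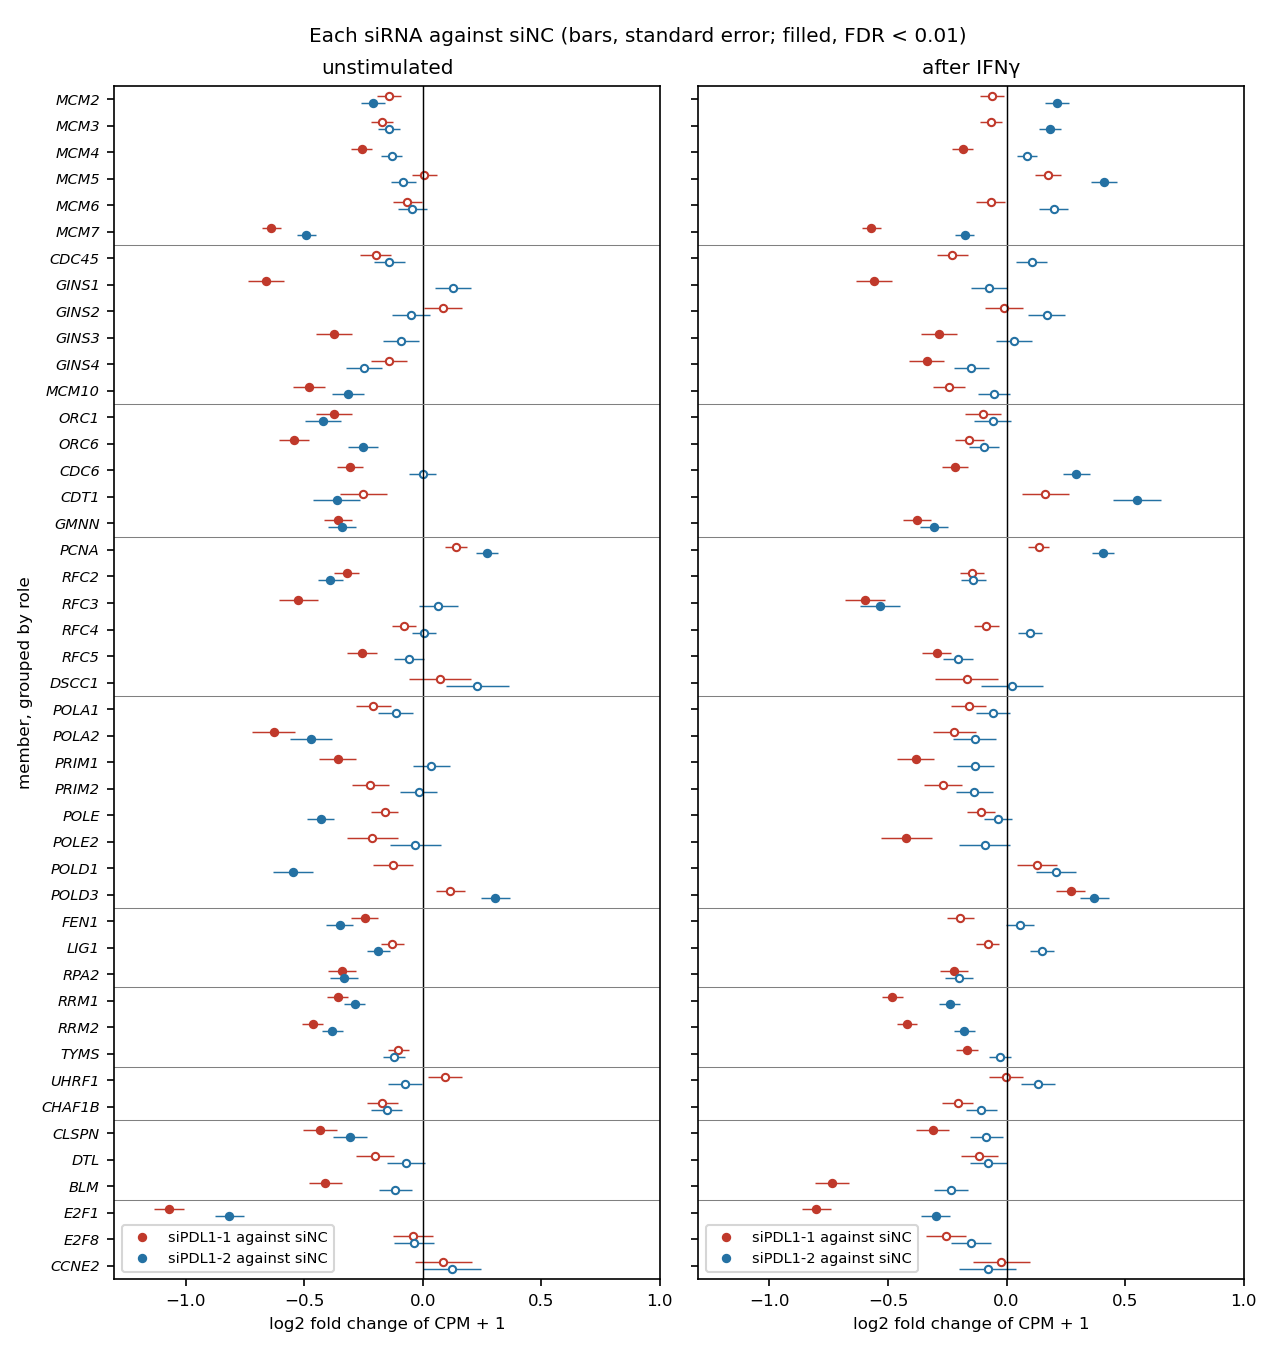
Log2 fold change of each siRNA against siNC (x axis, on the CPM + 1 scale) for the 45 genes (y axis), unstimulated (left) and after IFNγ (right). Points are limma estimates, bars their standard errors, and filled points FDR < 0.01. Most unstimulated values are below 0 for both siRNAs, while after IFNγ 7 siPDL1-2 points are called above 0.

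The stretches before the start sites of *E2F1*, *MCM6*, *CDT1* and *PCNA* are shown because these genes moved in different directions in the comparisons that follow and all hold an E2F motif. Windows of 300 bases around the start sites, most of each before the start, were given by RefSeq (GRCh38.p14) for 37 of the 45 genes and were searched on both strands for the E2F motif in the forms TTTCCCGC, TTTGGCGC, TTTCGCGC and TTTGCCGC, for the CCAAT box bound by NF-Y and for TTTGAA, the core of the CHR element of G2/M genes. Each sequence below holds the 200 bases before the start, 5′ to 3′ on the strand of the gene, and capitals mark E2F matches, read on either strand.
E2F1: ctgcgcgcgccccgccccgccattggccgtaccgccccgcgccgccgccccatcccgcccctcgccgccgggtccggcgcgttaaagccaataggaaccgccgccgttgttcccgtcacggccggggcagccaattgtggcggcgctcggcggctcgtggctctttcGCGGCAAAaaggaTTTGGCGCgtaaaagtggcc
MCM6: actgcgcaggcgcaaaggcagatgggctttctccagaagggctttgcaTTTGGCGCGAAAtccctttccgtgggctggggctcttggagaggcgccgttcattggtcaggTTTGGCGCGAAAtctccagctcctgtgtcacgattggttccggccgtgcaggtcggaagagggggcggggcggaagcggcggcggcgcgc
CDT1: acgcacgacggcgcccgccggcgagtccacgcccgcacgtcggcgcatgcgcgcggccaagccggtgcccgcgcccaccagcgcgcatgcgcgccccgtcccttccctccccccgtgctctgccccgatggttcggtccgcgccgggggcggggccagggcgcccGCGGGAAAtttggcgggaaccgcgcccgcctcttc
PCNA: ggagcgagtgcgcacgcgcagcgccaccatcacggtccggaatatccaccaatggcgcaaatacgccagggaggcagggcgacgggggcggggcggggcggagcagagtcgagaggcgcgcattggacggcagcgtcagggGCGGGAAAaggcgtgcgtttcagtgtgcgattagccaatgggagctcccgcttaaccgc
They lie at chr20:33686386-33686585 (minus strand), chr2:135876444-135876643 (minus strand), chr16:88803589-88803788 (plus strand) and chr20:5126623-5126822 (minus strand). Counted from the start, with -1 as the base before it, the matches of *E2F1* begin at -33 and -20. In *MCM6*, both capital stretches hold 2 matches on opposite strands that share bases, beginning at -152 and -148 and at -90 and -86. The matches in *CDT1* and *PCNA* begin at -35 and -59.

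Of the 37 genes with a window, 22 held at least 1 E2F match (59.5%), compared with 3.99% of the 27305 genes in the table. The CCAAT box was found in 23 (62.2%, against 39.7% of all), and TTTGAA in 1 (2.70%, against 18.2%). In *MCM7*, matches began at -187 and -9, and no E2F match was found in the windows of *RRM2*, *POLD1* or *BLM*. Between the 22 genes with a match and the 15 without, median log2 fold changes with siPDL1-1 in unstimulated cells were -0.21 and -0.32, and with siPDL1-2 they were -0.12 and -0.25. A gene counted as holding a motif if any of its windows did, and the matches describe letters, not binding. No window was given for *CCNE2*, *DSCC1*, *GINS4*, *MCM4*, *E2F8*, *MCM5*, *POLD3* and *RPA2*.

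*MCM7* also carries 3 microRNA genes in intron 13 of its canonical transcript, on the same strand of chromosome 7. Their main arms are shown because *MCM7* was, with *E2F1*, called in more of the pairwise comparisons than any other gene here (8 of 9), and capitals mark the seed at bases 2 to 8.
hsa-miR-106b-5p: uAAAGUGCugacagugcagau
hsa-miR-93-5p: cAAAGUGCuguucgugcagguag
hsa-miR-25-3p: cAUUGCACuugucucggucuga
The arms of *MIR106B* and *MIR93* share a seed, and that of *MIR25* differs. Their genes are listed at 0 in every library, and poly(A) libraries do not measure mature microRNAs, so these data give no level for them.

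IFNγ lowered 22 of the 45 genes in siNC cells and left 23 without a call, and *E2F1* fell most. It went from 49.5 and 49.6 CPM to 30.4 and 29.4 CPM, a log2 fold change of -0.71 ± 0.06 (FDR = 3.27e-07). *CDT1*, the licensing factor that is destroyed in S phase, was 19.3 and 19.97 CPM in unstimulated cells and 15.2 and 11.7 CPM after IFNγ. Both treated libraries were lower, at unequal levels, and the log2 fold change was -0.53 ± 0.10 (FDR = 0.000656), or not called without siNC IFNγ replicate 2 (FDR = 0.0141). *MCM5*, another subunit of the ring, was 57.9 and 58.9 CPM before and 42.9 and 41.2 CPM after IFNγ, a log2 fold change of -0.46 ± 0.05 (FDR = 6.87e-06). The 22 decreases and 0 increases stood against 9.34% and 17.9% of all genes tested, with a median of -0.19 beside 0.00 over all genes. Only *E2F1* passed the fold of 1.5 (8.12% of all genes). The count was 14 without siNC unstimulated replicate 2 and 14 without siNC IFNγ replicate 2.

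In siPDL1-1 cells, 18 genes fell and 0 rose with IFNγ, against 8.49% and 14.4% of all genes tested, with a median of -0.15 beside -0.02. The largest decrease was that of *GINS4*, the SLD5 subunit of GINS, from 22.7 and 22.9 CPM to 15.6 and 13.7 CPM (-0.61 ± 0.08, FDR = 1.65e-05). It was the 1 gene past a fold of 1.5, which 6.87% of all genes passed. *DSCC1*, a subunit of an alternative clamp loader, went from 12.1 and 12.9 CPM to 6.98 and 9.69 CPM (-0.54 ± 0.13, FDR = 0.00539), and its call was lost without either siPDL1-1 unstimulated library or siPDL1-1 IFNγ replicate 1 (FDR of up to 0.0495). *GINS2*, the PSF2 subunit, went from 20.6 and 20.2 CPM to 15.5 and 13.3 CPM (-0.48 ± 0.08, FDR = 0.000247).

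In siPDL1-2 cells, IFNγ gave 2 called decreases and 3 increases, against 7.56% and 9.57% of all genes tested. With plain CPM in place of the deposited scaling, 10 genes were lower and 0 higher, and of the 5 calls the 2 decreases were kept. The median over all genes tested was then -0.06. With the deposited scaling, the median was -0.07 beside -0.01, and 0 genes passed a fold of 1.5 (5.27% of all genes). *CDT1* rose from 14.9 and 15.2 CPM to 18.8 and 21.3 CPM (0.39 ± 0.10, FDR = 0.00924), *POLD1* from 79.0 and 82.2 to 103 and 106 CPM (0.37 ± 0.08), and *MCM2* from 72.0 and 70.7 to 82.9 and 82.4 CPM (0.21 ± 0.05). Treated libraries of all 3 lay above the unstimulated pair, and with plain CPM the values were 0.33, 0.31 and 0.15, none of them called. *RFC3* fell from 50.2 and 51.2 to 36.4 and 38.7 CPM (-0.42 ± 0.08), and *GINS4* from 20.1 and 22.3 to 17.2 and 16.4 CPM (-0.32 ± 0.08). The 5 calls rest on few libraries. They became 3 without either siNC unstimulated library, 1 without either siPDL1-1 unstimulated library, 0 without either siPDL1-2 unstimulated library, 0 without siPDL1-2 IFNγ replicate 1 and 1 without siPDL1-2 IFNγ replicate 2. At an unadjusted p below 0.05 there were 16 genes, and edgeR and DESeq2 called 5 each.

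**Figure D3:**
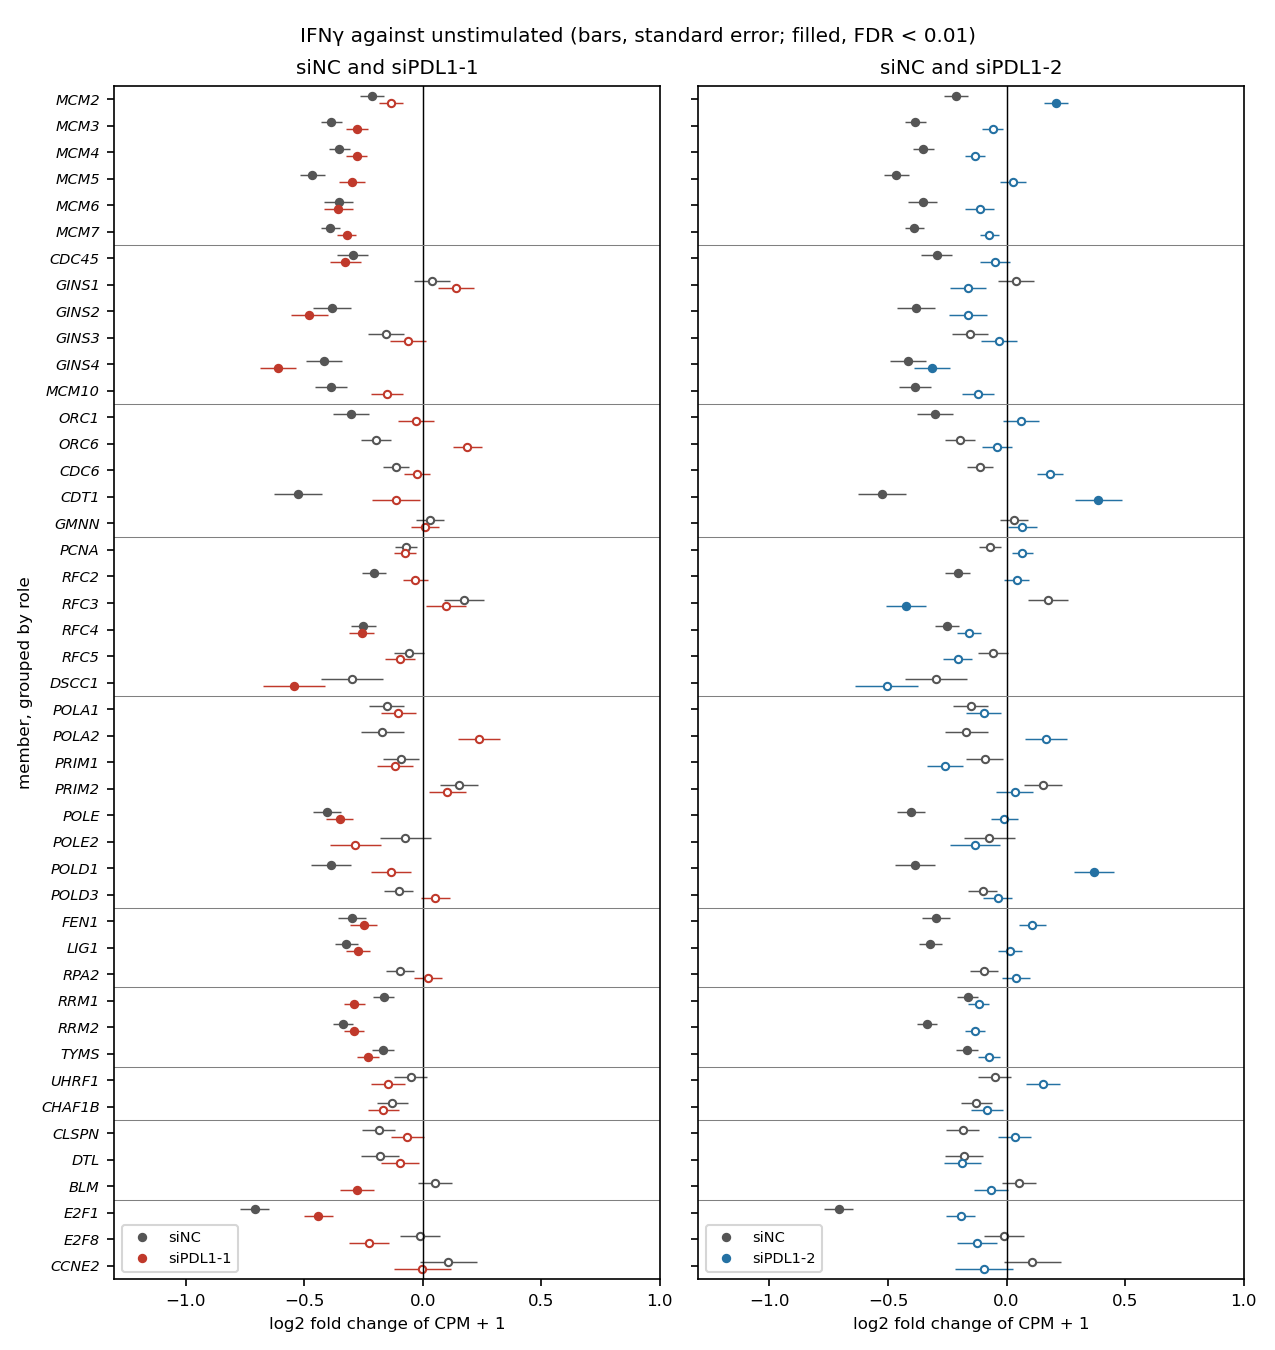
Log2 fold change of IFNγ against unstimulated cells (x axis, on the CPM + 1 scale) for the 45 genes (y axis), in siNC with siPDL1-1 (left) and siNC with siPDL1-2 (right). Points are limma estimates, bars their standard errors, and filled points FDR < 0.01. Decreases are called for 22 genes with siNC and 18 with siPDL1-1, and for 2 with siPDL1-2 (10 with plain CPM). Plain CPM also lowers the median of all genes tested with siPDL1-2, from -0.01 to -0.06.

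After IFNγ, 18 of the 19 calls with siPDL1-1 were decreases, whereas with siPDL1-2 6 genes fell and 7 rose. *E2F1* was 30.4 and 29.4 CPM with siNC, 16.6 and 16.9 CPM with siPDL1-1 and 23.1 and 25.2 CPM with siPDL1-2. It was lower with either siRNA, by a log2 change of -0.80 ± 0.06 (FDR = 1.21e-07) and -0.30 ± 0.06 (FDR = 0.00192). The siPDL1-2 value was -0.36 to -0.24 over omissions of 1 library, and was not called in all of them. *BLM* was 18.9 and 19.4 CPM with siNC, 11.3 and 10.8 CPM with siPDL1-1 and 16.1 and 16.2 CPM with siPDL1-2. The decrease was called for siPDL1-1 (-0.74 ± 0.07, FDR = 1.42e-06) and not for siPDL1-2 (-0.23 ± 0.07). *RFC3* was 53.4 and 56.0 CPM with siNC, 31.7 and 40.3 CPM with siPDL1-1 and 36.4 and 38.7 CPM with siPDL1-2, lower with both, by a log2 change of -0.60 ± 0.08 and -0.53 ± 0.08.

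With siPDL1-1 after IFNγ, 18 genes fell and 1 rose, against 12.2% and 11.6% of all genes tested, with a median of -0.20 beside -0.00. The gene that rose was *POLD3*, from 22.1 and 20.5 CPM with siNC to 25.3 and 26.5 CPM (0.27 ± 0.06, FDR = 0.0031). Its log2 fold change was 0.22 to 0.32 over omissions of 1 library, and it was not called in all of them. *E2F1*, *BLM* and *RFC3* passed the fold of 1.5 (3 of 45, against 5.47% of all genes). With siPDL1-2, 6 fell and 7 rose, against 9.75% and 8.6% of all genes, the median was -0.06 beside -0.01, and 0 passed the fold of 1.5 (3.13% of all genes). With plain CPM, 4 fell and 9 rose with siPDL1-2. Fits to the 6 IFNγ libraries alone called 9 genes for siPDL1-1 and 5 for siPDL1-2. DESeq2 called 12 and 13. No shares of all genes are given for these fits, and the fits to 6 libraries have fewer residual degrees of freedom. Without siNC IFNγ replicate 1 or 2 the numbers were 11 and 8 for siPDL1-1. For siPDL1-2 there were 2 lower and 6 higher without siNC IFNγ replicate 1, 3 and 4 without siNC IFNγ replicate 2, and 3 and 3 without siPDL1-2 IFNγ replicate 2.

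The genes that rose with siPDL1-2 after IFNγ were *CDT1*, *MCM5*, *PCNA*, *POLD3*, *CDC6*, *MCM2* and *MCM3*. *CDT1* was 15.2 and 11.7 CPM with siNC and 18.8 and 21.3 CPM with siPDL1-2, a log2 fold change of 0.55 ± 0.10 (FDR = 0.000779), which lost its call without siNC IFNγ replicate 2 or siPDL1-2 IFNγ replicate 2 (FDR of up to 0.0161). *MCM5* was 42.9 and 41.2 CPM with siNC and 53.7 and 58.8 CPM with siPDL1-2 (0.41 ± 0.05, FDR = 5.85e-05). *PCNA* was 90.1 and 96.8 CPM with siNC and 126 and 122 CPM with siPDL1-2 (0.41 ± 0.05, FDR = 1.47e-05). In these 3 genes, named because their called increases were the largest, both siPDL1-2 libraries lay above both siNC libraries. *POLD3* was 27.9 and 27.8 CPM with siPDL1-2 (0.37 ± 0.06). The decreases included *GMNN*, geminin, the inhibitor of CDT1, at 41.0 and 39.8 CPM with siNC and 33.5 and 31.4 CPM with siPDL1-2 (-0.31 ± 0.06, FDR = 0.00145). The other 5 that fell were *RFC3*, *E2F1*, *RRM1*, *RRM2* and *MCM7*.

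Set directly against each other after IFNγ, the siRNAs gave 17 genes lower with siPDL1-1 than with siPDL1-2 and 0 higher, against 4.52% and 5.94% of all genes tested. The difference was negative for 44 of the 45, with a median of -0.19 beside -0.00 over all genes. *CDC6*, the loader of the MCM ring, differed most, at 32.2 and 33.2 CPM with siNC, 28.2 and 27.8 CPM with siPDL1-1 and 39.7 and 41.0 CPM with siPDL1-2. The siPDL1-1 libraries were below the control and the siPDL1-2 libraries above it, and the difference was -0.51 ± 0.06 (FDR = 1.05e-05). For *BLM* it was -0.50 ± 0.07 (FDR = 0.000143) and for *E2F1* -0.50 ± 0.06 (FDR = 3.62e-05). All differences stayed under a fold of 1.5 (0 genes, against 2.23% of all genes). The count was 8 without siPDL1-2 IFNγ replicate 2, and 5 in the fit to the 6 IFNγ libraries.

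**Figure D4:**
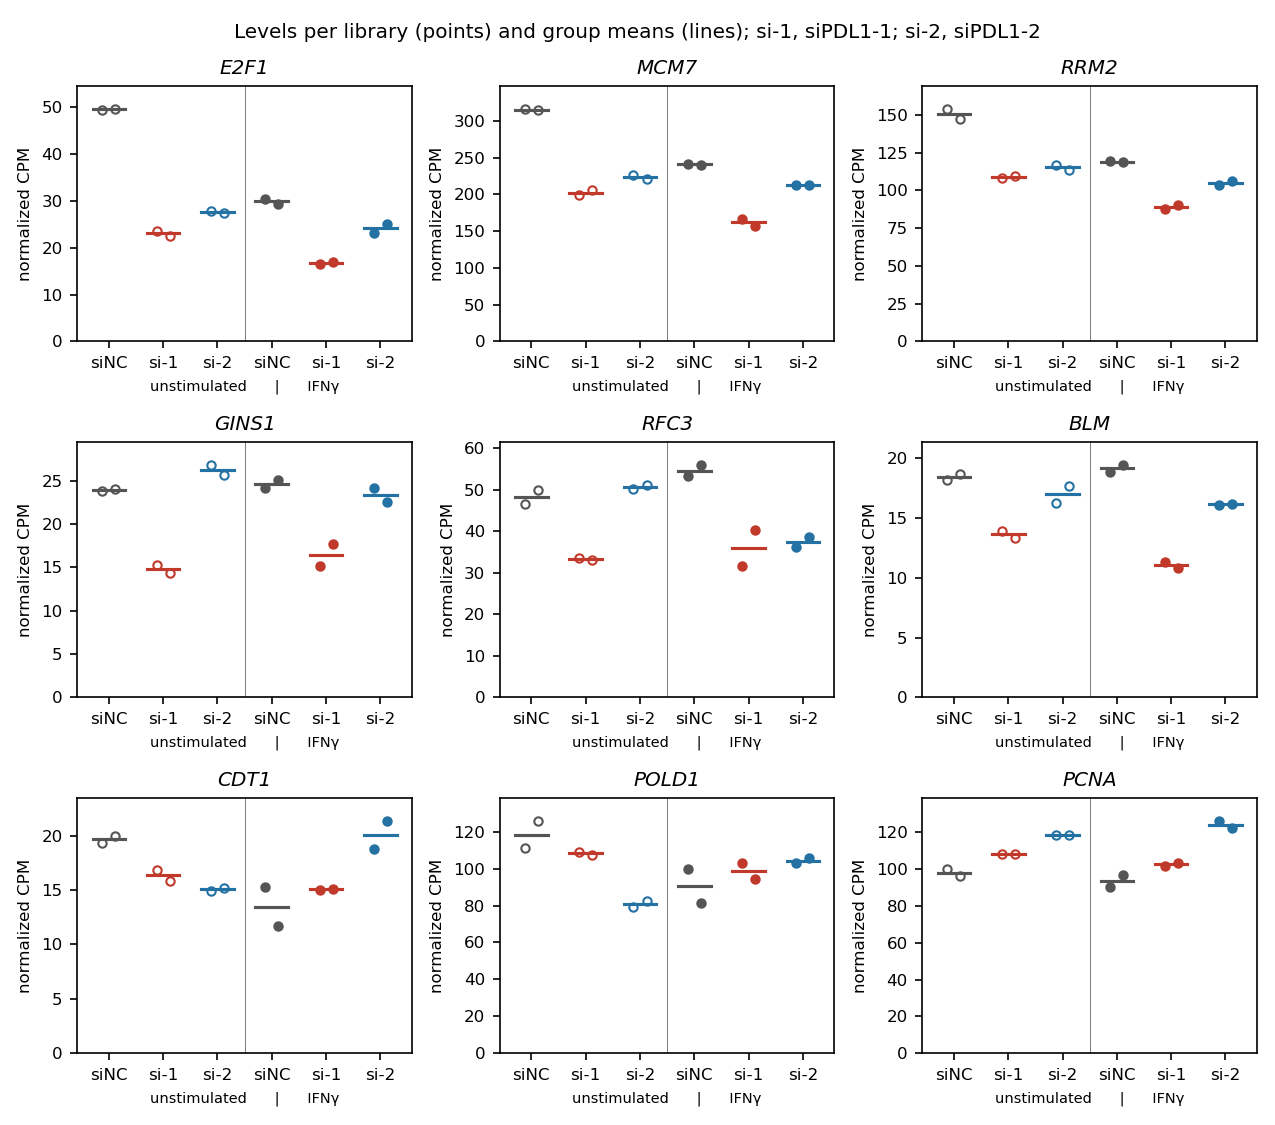
Normalized CPM (y axis, from 0) of 9 genes in the 12 libraries, by siRNA (x axis) and IFNγ state (open points unstimulated, filled points IFNγ), with lines at the means of 2 libraries. *E2F1*, *MCM7* and *RRM2* are highest in unstimulated siNC cells, and *GINS1* and *BLM* are lowest with siPDL1-1. The means of *CDT1* and *POLD1* fall with IFNγ in siNC cells and rise in siPDL1-2 cells. Those rises are not called with plain CPM.

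Whether the effect of an siRNA depended on IFNγ was tested as the difference between its log2 fold change after IFNγ and without it. For siPDL1-2 the difference was called in 11 of the 45 genes, 10 positive and 1 negative, against 5.16% and 11.9% of all genes tested, with a median of 0.15 beside -0.01. The largest were those of *CDT1* (from -0.36 unstimulated to 0.55 after IFNγ, a difference of 0.91 ± 0.14, FDR = 0.000319) and *POLD1* (from -0.55 to 0.21, a difference of 0.75 ± 0.12, FDR = 0.000653). *RFC3* had the negative difference, from 0.07 to -0.53 (-0.60 ± 0.12, FDR = 0.002). These 3 passed a fold of 1.5, as did 7.62% of all genes. The other positive differences were those of *E2F1* (0.52), *MCM5* (0.49), *MCM2* (0.42), *FEN1* (0.41), *POLE* (0.39), *LIG1* (0.34), *MCM3* (0.33) and *MCM7* (0.32). Without siPDL1-2 unstimulated replicate 2, 6 genes were called. For siPDL1-1, limma called 0 of the 45, while 9 had an unadjusted p below 0.05, and edgeR and DESeq2 called 1 each. The background for siPDL1-1 was 0.378% lower and 1.25% higher, and 0.968% past both thresholds. Leaving out siPDL1-1 IFNγ replicate 2 gave 1 call.

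Among the MCM helicase subunits, all 6 fell with IFNγ in siNC cells and 5 in siPDL1-1 cells, against 9.34% and 8.49% of all genes. The siNC value of *MCM2* was -0.27 to -0.16 over omissions of 1 library, and was not called in all of them. With siPDL1-2, 3 of the 6 (*MCM2*, *MCM3* and *MCM5*) were above siNC after IFNγ while *MCM7* was below it. Of these calls, that of *MCM5* was kept with any 1 library left out, while those of *MCM2*, *MCM3* and *MCM7* were kept in 5, 3 and 8 of 12 omissions (FDR of up to 0.0909, 0.0813 and 0.0240), and *MCM7* was also not called with plain CPM (FDR = 0.0213). *MCM2* was 82.8 and 82.6 CPM in unstimulated siNC cells, 74.0 and 68.4 CPM after IFNγ and 75.2 and 74.4 and then 70.5 and 65.8 CPM with siPDL1-1. *MCM3* was 198 and 199 CPM in unstimulated siNC cells and 153 and 151 CPM after IFNγ, 177 and 175 and then 149 and 141 CPM with siPDL1-1, and 185 and 175 and then 167 and 179 CPM with siPDL1-2. Its IFNγ effect was -0.38 ± 0.05 with siNC, -0.28 ± 0.05 with siPDL1-1 and -0.06 ± 0.05 with siPDL1-2, of which the last was not called. *MCM4* was 104 and 102 CPM in unstimulated siNC cells and 81.4 and 79.7 CPM after IFNγ, 84.9 and 87.1 and then 71.8 and 69.7 CPM with siPDL1-1, and 94.7 and 93.3 and then 84.9 and 86.3 CPM with siPDL1-2. It was lower with siPDL1-1 than with siNC in both states, by a log2 change of -0.26 ± 0.04 and -0.18 ± 0.04. *MCM7* after IFNγ was 241 and 239.9 CPM with siNC, 167 and 157 CPM with siPDL1-1 and 213 and 213 CPM with siPDL1-2, with the siRNAs in the same order as without IFNγ. The log2 fold changes against siNC were -0.57 ± 0.04 and -0.18 ± 0.04. *MCM6* ranged from 48.2 to 70.2 CPM over the libraries, and IFNγ lowered it by a log2 change of -0.35 ± 0.06 with siNC and -0.36 ± 0.06 with siPDL1-1, while neither siRNA gave a called difference from siNC.

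Of the 6 helicase partners, *GINS1* and *GINS3* fell with siPDL1-1 in both states, *MCM10* without IFNγ and *GINS4* after it. *GINS1* after IFNγ was 24.2 and 25.1 CPM with siNC, 15.2 and 17.7 CPM with siPDL1-1 and 24.2 and 22.6 CPM with siPDL1-2, so the siPDL1-1 libraries were again the lowest, by a log2 change of -0.56 ± 0.08. *GINS1* had no called IFNγ effect with any siRNA. *GINS3*, the PSF3 subunit, ranged from 9.03 to 12.6 CPM, and fell by a log2 change of -0.37 ± 0.08 and -0.28 ± 0.08 with siPDL1-1. *CDC45*, the helicase cofactor, ranged from 17.5 to 26.8 CPM and fell with IFNγ by a log2 change of -0.30 ± 0.06 with siNC and -0.33 ± 0.06 with siPDL1-1. *MCM10*, an initiation factor, ranged from 16.6 to 27.8 CPM and was below siNC in unstimulated cells by a log2 change of -0.48 ± 0.07 with siPDL1-1 and -0.32 ± 0.07 with siPDL1-2. *GINS2* and *GINS4* in siNC cells were 18.2 and 20.1 and 25.4 and 25.3 CPM without IFNγ and 14.2 and 14.7 and 18.4 and 19.0 CPM with it, and both fell (-0.38 ± 0.08 and -0.41 ± 0.08).

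Of the 5 origin licensing genes, 4 fell with each siRNA in unstimulated cells, against 8.99% (siPDL1-1) and 11.9% (siPDL1-2) of all genes tested. After IFNγ 2 fell with siPDL1-1, against 12.2% of all genes. With siPDL1-2, 1 fell and 2 rose there, against 9.75% and 8.6%. The *CDC6* decrease with siPDL1-1 after IFNγ lost its call in most omissions of 1 library, with log2 fold changes of -0.24 to -0.20. *ORC1* and *ORC6*, subunits of the origin recognition complex, ranged from 19.8 to 28.4 and 29.3 to 45.7 CPM. *ORC6* fell by a log2 change of -0.54 ± 0.06 with siPDL1-1 and -0.25 ± 0.06 with siPDL1-2, and *ORC1* by a log2 change of -0.37 ± 0.08 and -0.42 ± 0.08. After IFNγ neither had a called difference from siNC. *CDC6* was 35.0 and 35.9 CPM with siNC, 28.0 and 29.0 CPM with siPDL1-1 and 36.2 and 34.6 CPM with siPDL1-2 without IFNγ, lower with siPDL1-1 alone among the calls (-0.31 ± 0.06). *GMNN* fell with both siRNAs in both states, from 39.9 and 39.1 CPM in unstimulated siNC cells to 31.4 and 29.9 CPM with siPDL1-1 and 32.3 and 29.7 CPM with siPDL1-2, and had no called IFNγ effect. *CDT1* with siPDL1-1 was 16.9 and 15.8 CPM without IFNγ and 15.01 and 15.1 CPM with it, and neither value was called against siNC.

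In the clamp and clamp loader group, *PCNA* rose and *RFC2* fell with siPDL1-2 in unstimulated cells. *RFC2*, a loader subunit, ranged from 57.8 to 78.3 CPM and fell by a log2 change of -0.32 ± 0.05 with siPDL1-1 and -0.39 ± 0.05 with siPDL1-2. *RFC4* and *RFC5*, the remaining small loader subunits, ranged from 36.4 to 48.0 and 25.2 to 34.2 CPM. *RFC4* fell with IFNγ in siNC and siPDL1-1 cells (-0.25 ± 0.05 and -0.26 ± 0.05), and *RFC5* fell with siPDL1-1 in both states (-0.26 ± 0.06 and -0.30 ± 0.06). *DSCC1*, which fell with IFNγ in siPDL1-1 cells, was 13.4 and 14.6 CPM and then 10.5 and 8.69 CPM in siPDL1-2 cells, where its value of -0.51 ± 0.13 was not called. *PCNA* in siPDL1-1 cells was 102 and 104 CPM after IFNγ, below the siPDL1-2 libraries by a log2 change of -0.27 ± 0.05.

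The polymerase and primase subunits did not move as a block. *POLA1*, the catalytic subunit of polymerase alpha, and *PRIM2*, the large primase subunit, ranged from 25.1 to 35.0 and 19.9 to 26.9 CPM and were not called in any of the 9 pairwise comparisons. *POLA2*, the second subunit of polymerase alpha, was 26.5 and 25.1 CPM in unstimulated siNC cells, 17.2 and 15.5 CPM with siPDL1-1 and 18.7 and 17.9 CPM with siPDL1-2. Both siRNAs lowered it there (-0.63 ± 0.09 and -0.47 ± 0.09), and neither difference was called after IFNγ. *PRIM1* was 16.2 and 16.2 CPM in unstimulated siNC cells, and fell with siPDL1-1 in both states (-0.36 ± 0.08 and -0.38 ± 0.08). *POLE* went from 79.8 and 83.2 CPM to 62.3 and 60.5 CPM with IFNγ in siNC cells (-0.40 ± 0.06), and in unstimulated cells it fell with siPDL1-2 (-0.43 ± 0.06). *POLE2*, its second subunit, ranged from 4.34 to 7.41 CPM and fell with siPDL1-1 after IFNγ (-0.42 ± 0.11). *POLD1* in siNC cells after IFNγ was 99.8 and 81.5 CPM, with the 2 libraries further apart than in most groups. Its decrease with IFNγ there lost its call without siNC unstimulated replicate 2 or siNC IFNγ replicate 2. The log2 fold change was -0.53 to -0.24 over the omissions of 1 library. With siPDL1-1 after IFNγ *POLD1* was 103 and 94.3 CPM. *POLD3* was the only one of the 45 genes whose calls in the 9 pairwise comparisons were all increases, 3 in number.

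*FEN1* and *LIG1* fell with IFNγ in siNC and siPDL1-1 cells. *FEN1*, the flap endonuclease, was 59.5 and 56.8 CPM in unstimulated siNC cells and 46.5 and 47.7 CPM after IFNγ, 48.8 and 49.0 and then 42.5 and 39.5 CPM with siPDL1-1, and 45.4 and 45.4 and then 46.9 and 51.3 CPM with siPDL1-2. The siPDL1-2 libraries were the only pair in which both IFNγ values exceeded both unstimulated values, a difference of 0.11 ± 0.06 that was not called. *FEN1* overlaps *FADS2* on the same strand, which averaged 141 CPM. *LIG1*, the ligase that joins Okazaki fragments, ranged from 41.8 to 57.1 CPM and fell with IFNγ by a log2 change of -0.32 ± 0.05 with siNC and -0.27 ± 0.05 with siPDL1-1. *RPA2*, a subunit of the single-strand binding protein, ranged from 46.9 to 64.6 CPM and fell in unstimulated cells by a log2 change of -0.34 ± 0.06 with siPDL1-1 and -0.33 ± 0.06 with siPDL1-2, and after IFNγ by a log2 change of -0.22 ± 0.06 with siPDL1-1.

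Both ribonucleotide reductase subunits were lower with each siRNA in each state. *RRM1*, the large subunit, was 129 and 131 CPM with siNC, 103 and 99.4 CPM with siPDL1-1 and 109 and 104 CPM with siPDL1-2 without IFNγ, and 117 and 115, 81.9 and 83.5 and 96.4 and 99.5 CPM, in the same order, after it. *RRM2*, the small subunit, was 154 and 147 CPM with siNC, 108 and 109.8 CPM with siPDL1-1 and 117 and 114 CPM with siPDL1-2 without IFNγ, and 119 and 119, 87.6 and 90.1 and 104 and 107 CPM after it. In either state the siNC pair lay above every siPDL1 library for both genes. The log2 fold changes of *RRM2* against siNC were -0.46 ± 0.04 and -0.38 ± 0.04 without IFNγ and -0.42 ± 0.04 and -0.18 ± 0.04 after it, for siPDL1-1 and siPDL1-2. The last of these was kept in 4 of 12 omissions of 1 library (FDR of up to 0.0341) and was not called with plain CPM (FDR = 0.0284). Those of *RRM1* were -0.36 ± 0.04 and -0.29 ± 0.04, then -0.48 ± 0.04 and -0.24 ± 0.04. *TYMS*, thymidylate synthase, ranged from 156 to 202 CPM and had smaller values, with a called decrease for siPDL1-1 after IFNγ (-0.17 ± 0.04).

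Of the remaining genes, several were not called in any of the 9 pairwise comparisons. *UHRF1*, a reader of hemimethylated DNA, ranged from 42.9 to 52.2 CPM, and *CHAF1B*, a subunit of the chromatin assembly factor CAF-1, from 17.7 to 23.4 CPM. *DTL*, the ligase subunit that marks CDT1 for destruction, ranged from 16.1 to 22.7 CPM, *E2F8*, a repressor of the E2F family, from 12.3 to 17.1 CPM, and *CCNE2* from 2.69 to 3.58 CPM. With *POLA1* and *PRIM2* these make 7 genes without a call. *CLSPN* ranged from 23.2 to 35.3 CPM and fell in unstimulated cells by a log2 change of -0.43 ± 0.07 with siPDL1-1 and -0.31 ± 0.07 with siPDL1-2, and after IFNγ by a log2 change of -0.31 ± 0.07 with siPDL1-1. *BLM* in unstimulated cells was 18.2 and 18.7 CPM with siNC, 13.9 and 13.3 CPM with siPDL1-1 and 16.2 and 17.7 CPM with siPDL1-2, lower with siPDL1-1 (-0.41 ± 0.07), and IFNγ lowered it in siPDL1-1 cells (-0.28 ± 0.07). That last call was lost with edgeR's and DESeq2's tests, and without any 1 of 9 of the 12 libraries (FDR of up to 0.0724).

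A wider list of 59 other replication and S-phase genes, chosen by role, and the 54 G2/M-phase genes of the Seurat cell-cycle list give the surroundings. Of the 59, 21 fell and 0 rose with siPDL1-1 in unstimulated cells, against 8.99% and 9.8% of all genes tested. The largest fall was that of *UNG*, the uracil glycosylase (-0.76). With siPDL1-2, 16 fell and 6 rose, against 11.9% and 16.5% of all genes. There *RB1*, the retinoblastoma repressor of E2F, rose by 0.80 on the log2 scale. After IFNγ 23 fell and 1 rose with siPDL1-1, against 12.2% and 11.6% of all genes. With siPDL1-2, 8 fell and 3 rose, against 9.75% and 8.6% of all genes. *E2F7*, a repressor of the E2F family, fell by 0.74 with either siRNA. With IFNγ itself, 18 fell and 9 rose in siNC cells, against 9.34% and 17.9% of all genes. The numbers were 11 and 8 in siPDL1-1 cells, against 8.49% and 14.4%. They were 6 and 2 in siPDL1-2 cells, against 7.56% and 9.57%. *RB1* (0.71) led the increases in siNC cells. Of the G2/M-phase genes, many fell with each siRNA, and the shares of all genes just given stand beside these counts too. In unstimulated cells 48 of the 54 fell with siPDL1-1 (median -0.52) and 34 with siPDL1-2 (median -0.32), and after IFNγ the numbers were 50 (median -0.63) and 48 (median -0.43). With IFNγ, 20 fell and 14 rose in siNC cells (median -0.04), 27 and 4 in siPDL1-1 cells (median -0.19) and 24 and 1 in siPDL1-2 cells (median -0.20). The part of cell-cycle distribution in the values of the 45 genes was not tested.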

How the data were processed

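Poly(A) RNA of 12 U251 libraries, 2 in each of 6 groups, was measured. The authors mapped and counted reads per gene with CLC Genomics Workbench against GRCh38 with Ensembl annotation, without using strand. They deposited the values as normalized CPM, handled here as a signal. In these, reads are scaled to the size of each library, itself multiplied by a factor of 0.959 to 1.036. Plain CPM leaves that factor out. Dividing by the value of 1 read in each library gave whole reads, within 0.01 of a read, for 100% of values above 0, and these reads served the count tests. Duplicated libraries were not found (mean chi-square per gene between the libraries of a group 1.85 to 7.76). Genes passed edgeR's expression filter by group, set to a minimum count of 10 and a minimum total of 15 reads, which left 17982. The filter applies the minimum count as a CPM cutoff, in a number of libraries set by the group size. limma 3.58.1 (R 4.3.3), with an intensity trend and robust variance, was fitted to log2(CPM + 1) of all 12 libraries, with 6 residual degrees of freedom, for 9 pairwise contrasts and 2 differences of contrasts. Fold changes are on the log2(CPM + 1) scale and understate those of low genes. p-values were adjusted by Benjamini-Hochberg over all tested genes, and a gene was called at FDR < 0.01.

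Alternatives were the quasi-likelihood test of edgeR 4.0.16, DESeq2 1.42.0, its size factors, a pseudocount of 0.1, no filter, a fold above 1.5 as well, libraries of 1 IFNγ state, a replicate block and omission of each library. Shares of all genes tested are those of the main limma fit, and none are given for the alternatives. The limma fit was tested on simulated data. Tables and figures were made with Python 3.11.15, pandas 2.3.3, numpy 2.4.6 and matplotlib 3.10.9. The members and lists were chosen with earlier results of these data known. Every member is named; values per library are given for the 12 members called most often and for the 3 largest increases and decreases of each contrast, and of the other lists at most the 3 largest changes. Promoter and microRNA sequences came from RefSeq (GRCh38.p14).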

Additional observations from a re-analysis of the deposited data

Results flagged for a closer look

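The effect of siPDL1-2 differed between unstimulated and IFNγ-exposed cells, by limma's test of the difference itself, in 11 of the 45 genes. The difference in log2 fold change was 0.91 (standard error 0.14) for *CDT1*, 0.75 (0.12) for *POLD1*, 0.52 (0.09) for *E2F1*, 0.49 (0.08) for *MCM5* and 0.42 (0.07) for *MCM2*. It was 0.41 (0.08) for *FEN1*, 0.39 (0.08) for *POLE*, 0.34 (0.07) for *LIG1*, 0.33 (0.06) for *MCM3* and 0.32 (0.06) for *MCM7*. The difference of *RFC3* was negative, at -0.60 (0.12). With each of the 12 libraries left out in turn, the calls of *CDT1*, *POLD1*, *E2F1*, *MCM5*, *MCM2* and *MCM7* were kept in all 12 fits, those of *MCM3* and *RFC3* in 9, those of *FEN1* and *LIG1* in 8 and that of *POLE* in 7.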

How the results depend on the processing

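None of the 97 calls of the genes described by library changed direction in the alternative fits or with 1 library left out. With a fold above 1.5 also required, in the order siPDL1-1 against siNC, siPDL1-2 against siNC and siPDL1-1 against siPDL1-2, the called genes were 4, 1 and 2 in unstimulated cells and 3, 0 and 0 after IFNγ. That rule left 1 gene for IFNγ in siNC cells, 1 in siPDL1-1 cells, 0 in siPDL1-2 cells and 3 for the IFNγ dependence of the siPDL1-2 effect. The fits to the 6 IFNγ libraries called 9, 5 and 5 genes in the same order. DESeq2 called 12 genes for siPDL1-1 after IFNγ. For IFNγ in siPDL1-2 cells, plain CPM, an alternative chosen after seeing the data, called 10, all lower. Of these, 2 were among the 5 calls with the deposited scaling. Plain CPM moved the median of all genes tested there from -0.01 to -0.06. No filter on low values called 1 gene in that comparison. The IFNγ dependence of the siPDL1-1 effect had 1 call with edgeR, DESeq2 and DESeq2's size factors. The cause of these shifts was not tested. With 1 library left out, counts ranged from 13 to 22, 10 to 22 and 2 to 11 for the unstimulated siRNA comparisons, 8 to 17, 6 to 15 and 8 to 17 after IFNγ, and 14 to 23, 12 to 18 and 0 to 5 for IFNγ in siNC, siPDL1-1 and siPDL1-2 cells. For the IFNγ dependence of the siPDL1-1 and siPDL1-2 effects they ranged from 0 to 1 and 6 to 16. Where 1 library was left in a group, it was assumed to vary like the others. Of the 97 calls, 91 were kept with plain CPM and 80 with no filter, and 50 were kept in every omission of 1 library and 47 were lost in at least 1, with an FDR of up to 0.109. Replicate numbers did not pair the libraries (correlations -0.299 to 0.363), and with the replicate block the counts were 21, 19 and 9 for the unstimulated siRNA comparisons, 17, 12 and 16 after IFNγ, 20, 18 and 4 for IFNγ, and 0 and 11 for the dependences. With 2 libraries a group and the lowest gene at 48 reads in its poorest library, small differences may go undetected.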
